A study of Homo sapiens with 3 samples.

Results

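Nucleoside transporters of the SLC28 and SLC29 families were examined in a pooled knockout screen of NUGC3, a long-established line of human gastric cancer cells, which carried a GeCKO library. GeCKO is a pool of guide RNAs that steer the Cas9 nuclease to human genes, and the reads of a guide in genomic DNA follow the number of cells that carry it. Such reads hold no marker of the cell line itself, so its identity could not be checked. The transporters were taken by name, as every guide whose listed gene was SLC28A1, SLC28A2, SLC28A3, SLC29A1, SLC29A2, SLC29A3 or SLC29A4. This gave 21 of 62916 guides, 3 for each of the 7 genes, of which 9 target SLC28 genes and 12 target SLC29 genes. The 3 groups were cells in 10 nM RTX at day 14, cells in the solvent DMSO at day 14, and cells at day 0, which the titles also tie to DMSO. All carried the same library in the same line, and each group was 1 sequenced library, so no difference below has a replicate check. The series title concerns antifolate drugs, and the labels do not spell out RTX. The groups follow the sample titles, since a treatment note in the labels ties the 14 days of DMSO to the day 0 group.

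Nucleosides are too polar to cross membranes unaided, and both families carry them. The SLC28 proteins are concentrative transporters, which use the sodium gradient to pull nucleosides into the cell against their own gradient. The SLC29 proteins are equilibrative transporters, which let nucleosides pass down their gradient in either direction. Thymidine brought in this way is phosphorylated by thymidine kinase and so gives the cell thymidylate without thymidylate synthase, the enzyme whose folate-dependent step many antifolates block. A comparison of RTX with DMSO therefore bears on whether cells with a guide against a given transporter were more or less abundant in the drug. Guide reads do not measure whether the transporter was present in these cells or was lost. Per the RefSeq table of GRCh38.p14, SLC28A1 and SLC28A2 both lie on chromosome 15, SLC28A3 on 9, SLC29A1 on 6, SLC29A2 on 11, SLC29A3 on 10 and SLC29A4 on 7.

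The libraries held 17344507 reads in RTX, 18805737 in DMSO and 16547572 at day 0, with medians of 232, 251 and 230 reads per guide. The transporter guides together took 4451 reads in RTX, 5773 in DMSO and 4754 at day 0. All 21 had at least 10 normalized reads at day 0, the minimum used here, which 62610 of all guides met. A guide's change is given as the log2 ratio of the deposited normalized values after adding 5 to each, which shrinks the ratios of sparse guides. A gene score is the median over the guides of a gene. A guide or gene is called here when it is at least 2-fold higher or lower, which is a rule of size and not a test. Guides differ in abundance from the start, so reads are compared between libraries for the same guide only.

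Guides without a target in the genome give the drift between 2 libraries. Of the 991 non-targeting guides above the minimum, the central 95% lay between -1.31 and 1.17 in RTX over DMSO, with a median of -0.10. The same limits were -0.97 and 1.11 in DMSO over day 0, with a median of 0.19, and -1.01 and 1.05 in RTX over day 0, with a median of 0.11. In RTX over DMSO 4.24% of these guides were at least 2-fold higher and 6.05% at least 2-fold lower. Intervals given for single guides are 95% intervals from the reads alone. They cover counting error only, and reads from PCR without molecular identifiers are not independent molecules.

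In RTX over DMSO, 10 of the 12 equilibrative transporter guides were less abundant in the drug, as were 5 of the 9 concentrative ones, and SLC29A3 was the 1 gene of the 7 that was called. With a pseudocount of 20 its score was -0.91, and that call was lost. All 3 guides were lower in RTX for SLC29A1, SLC29A3 and SLC29A4, whereas SLC29A2 and the 3 SLC28 genes had guides on both sides. That made 3 of 7 genes with every guide lower, beside 13.3% of all 20150 genes with at least 2 guides. Of those genes 18094 had 3 guides, as the members do, and the share among them alone was not computed. In all, 15 of the 21 guides were lower in RTX, beside 50% of all guides. The median of the 7 gene scores was -0.36, against -0.0025 over all genes. That value is the score of SLC28A1, which turned to 0.85 without guide 52118 and to 0.75 without guide 52119. The median of the 7 was -0.0568 with the mean in place of the median over the guides of each gene. Scaled to the non-targeting guides, whose own median was -0.10 in this comparison, it was -0.26. Scaled to 1000000 reads a library (CPM), the 12 SLC29 guides together took 130.7 CPM in RTX, 184.1 in DMSO and 166.9 at day 0. The 9 SLC28 guides together took 125.9 CPM in RTX, 122.8 in DMSO and 120.4 at day 0.

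Counts past the 2-fold limit were small. In RTX over DMSO 3 of 21 transporter guides (14.3%) were called higher, where 7.89% of all guides were, and 2 (9.52%) were called lower, where 5.43% of all guides were. At the gene level 0 of 7 were called higher and 1 lower, and the shares over all genes were 2.75% and 0.844%. Of the 21 guides, 17 stayed inside the central 95% of the non-targeting guides, 3 lay above it and 1 below. Over all guides 91.9% were inside, 5.60% above and 2.51% below. With 21 guides, these shares differ from the background by a few guides.

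edgeR's exact test on recovered whole reads, with 1 dispersion taken from the non-targeting guides and Benjamini-Hochberg adjustment over 62916 guides, compares the 2 libraries and not the conditions. It called 0 of 21 transporter guides higher in RTX over DMSO and 0 lower, and over all guides it called 0.950% and 0.408%. At an unadjusted p under 0.05 it had 3 of the 21 higher and 1 lower, where all guides had 4.9% and 3.0%. At an FDR under 0.05 the authors' deposited table had 4 transporter guides higher and 0 lower, beside 13.9% and 4.29% of all guides. The same limit took in 13.6% of the non-targeting guides in the authors' deposited table. The FDR equals the unadjusted p for 50.1% of guides in the authors' deposited table, which a plain Benjamini-Hochberg adjustment would not give, so how it was computed is unknown here.

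SLC29A1 encodes ENT1, the equilibrative transporter found in most cell types and a main route for thymidine. Its guide 52127 had 354 reads in RTX, 599 in DMSO and 407 at day 0. Guide 52128 had 182, 292 and 237 reads in the same libraries. Guide 52129 had 81, 131 and 53 reads.

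Every SLC29A1 guide was thus lower in RTX than in DMSO, and the 3 changed by almost the same factor. Their log2 ratios of RTX over DMSO were -0.61, -0.53 and -0.53, so the gene score was -0.53. The range over the guides was 0.0842, and only 0.558% of the 18094 genes with 3 guides had a smaller one, where the median gene had 0.962. Counting intervals were -0.81 to -0.43 for guide 52127, -0.82 to -0.27 for guide 52128 and -0.97 to -0.14 for guide 52129. All 3 values lay inside the central 95% of the non-targeting guides, of which 17.5% to 21.3% were lower still.

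The SLC29A1 guides stood at 0.39, 0.14 and 1.08 in DMSO over day 0, with a gene score of 0.39. The score was 0.20 when scaled to the non-targeting guides, whose own median was 0.19 in that comparison. In RTX over day 0 they stood at -0.21, -0.38 and 0.56, so that 2 guides were lower in RTX and 1 higher. The close spacing of the guides in RTX over DMSO was not seen there, with ranges of 0.941 in both comparisons against day 0. These comparisons share libraries, so they are not independent of each other.

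SLC29A3 encodes ENT3, an equilibrative transporter of lysosomes and other inner membranes, and it stood lowest of the 7. Guide 52133 had 85 reads in RTX, 182 in DMSO and 148 at day 0. Guide 52134 had 21, 88 and 55 reads. Guide 52135 had 39, 99 and 108 reads.

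Each SLC29A3 guide had fewer reads in RTX than in either other library. The log2 ratios of RTX over DMSO were -0.92, -1.72 and -1.11, with counting intervals of -1.35 to -0.58, -2.69 to -1.23 and -1.78 to -0.66. The gene score of -1.11 was the 113th lowest of 20150 genes. Guide 52134 was the 1 transporter guide under the non-targeting limit of -1.31, and it rests on 21 reads in RTX. By edgeR's exact test the adjusted p of its 3 guides was 0.905, 0.247 and 0.768 in RTX over DMSO.

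All 3 SLC29A3 guides were also lower in RTX than at day 0. The ratios of RTX over day 0 were -0.77, -1.21 and -1.37, giving a gene score of -1.21, the 144th lowest of all genes. Guides 52134 and 52135 lay below the non-targeting limit in that comparison. In DMSO over day 0 the same guides stood at 0.14, 0.48 and -0.27, with a gene score of 0.14 and all 3 inside the non-targeting limits. With each guide left out in turn, the gene score ran from -1.41 to -1.02 in RTX over DMSO and from -1.29 to -0.99 in RTX over day 0. Without guide 52135 the score in RTX over day 0 was -0.99, short of the 2-fold limit. With a pseudocount of 20 and all guides it was -0.88.

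SLC29A4 encodes ENT4, also named PMAT, which is better known as a carrier of monoamines and other organic cations than of nucleosides. Guide 52136 had 366 reads in RTX, 623 in DMSO and 502 at day 0. Guide 52137 had 48, 76 and 61 reads, and guide 52138 had 458, 690 and 451 reads.

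The SLC29A4 guides were all lower in RTX than in DMSO by a similar factor, with log2 ratios of -0.62, -0.48 and -0.45 and a gene score of -0.48. Their range of 0.174 was larger than that of 2.24% of genes with 3 guides. Counting intervals were -0.82 to -0.44 for guide 52136, -1.08 to 0.02 for guide 52137 and -0.625 to -0.28 for guide 52138. The interval of guide 52137 took in 0, so its fall is not separated from no change by its reads. All 3 guides lay inside the non-targeting limits. The guides stood at 0.15, 0.15 and 0.45 in DMSO over day 0, and at -0.46, -0.32 and 0.01 in RTX over day 0. The gene score was 0.15 in DMSO over day 0 and -0.32 in RTX over day 0.

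SLC29A2 encodes ENT2, an equilibrative transporter that carries nucleobases as well as nucleosides, and its guides disagreed. Guide 52130 had 102 reads in RTX, 75 in DMSO and 195 at day 0. Guide 52131 had 226, 55 and 201 reads. Guide 52132 had 305, 553 and 344 reads.

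Guides 52130 and 52131 were lowest in DMSO, whereas guide 52132 was highest there. The log2 ratios of RTX over DMSO were 0.55, 2.08 and -0.71, around a gene score of 0.55. Their range of 2.79 was larger than that of 97.0% of genes with 3 guides. Guide 52131 lay above 99.3% of the non-targeting guides, and its edgeR exact test gave an adjusted p of 0.0767, the lowest of the 21 guides in this comparison. Without guide 52131 the gene score was -0.08, and without guide 52132 it was 1.31.

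The SLC29A2 guides stood at -1.47, -1.93 and 0.52 in DMSO over day 0, and the gene score of -1.47 was the 260th lowest of all genes. Guide 52131 had an adjusted p of 0.0291 by edgeR's exact test there, the 1 transporter guide under 0.05 in any comparison. Without guide 52131 the gene score was -0.48, and without guide 52130 it was -0.71, so the call at -1 needs both. The mean over the guides, in place of the median, was -0.96, short of the 2-fold limit. In RTX over day 0, which leaves out the DMSO library, the guides stood at -0.91, 0.16 and -0.18 and the gene score was -0.18. All 3 were inside the non-targeting limits there.

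Among the concentrative transporters, SLC28A1 encodes CNT1, which prefers pyrimidine nucleosides such as thymidine. Guide 52118 had 324 reads in RTX, 527 in DMSO and 362 at day 0. Guide 52119 had 268, 380 and 296 reads. Guide 52120 had 68, 14 and 42 reads, and stood at percentile 4.13 of all guides by day 0 reads.

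The well-covered SLC28A1 guides were lower in RTX than in DMSO, and the sparse one was higher. The log2 ratios were -0.56, -0.36 and 2.06, around a gene score of -0.36. The counting interval of guide 52120 was 1.58 to 3.37, set by its 14 reads in DMSO, and its adjusted p by edgeR's exact test was 0.0880. Against day 0 the guides stood at -0.17, -0.15 and 0.63 in RTX, and at 0.38, 0.20 and -1.44 in DMSO. Without guide 52118 the gene score in RTX over DMSO was 0.85, and without guide 52119 it was 0.75, so its sign needs both. The mean over the guides, in place of the median, was 0.38 in RTX over DMSO, opposite in sign to the gene score.

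SLC28A2 encodes CNT2, which prefers purine nucleosides. Guide 52121 had 86 reads in RTX, 131 in DMSO and 108 at day 0. Guide 52122 had 391, 245 and 329 reads. Guide 52123 had 91, 32 and 64 reads.

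The SLC28A2 guides were split, with 2 of them more abundant in RTX than in DMSO and 1 less. The log2 ratios were -0.45, 0.80 and 1.503, and the gene score of 0.80 was the highest of the 7. Guide 52123 lay above 98.8% of the non-targeting guides, with 32 reads in DMSO. With each guide left out in turn, the gene score ran from 0.18 to 1.15. Its guides stood at 0.11, -0.57 and -1.04 in DMSO over day 0, with a gene score of -0.57. In RTX over day 0 they stood at -0.32, 0.24 and 0.47, with a gene score of 0.24 and all guides inside the non-targeting limits.

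SLC28A3 encodes CNT3, which accepts both purine and pyrimidine nucleosides, and its score was the closest to 0 of the 7 in RTX over DMSO. Guide 52124 had 40 reads in RTX, 46 in DMSO and 62 at day 0. Guide 52125, the most abundant of the 21, had 772, 735 and 610 reads, and guide 52126 had 144, 200 and 119. The log2 ratios of RTX over DMSO were -0.06, 0.21 and -0.32, with a gene score of -0.06. Against day 0 the guides stood at -0.58, 0.33 and 0.26 in RTX, and at -0.54, 0.11 and 0.57 in DMSO. No SLC28A3 guide left the non-targeting limits in any comparison.

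From lowest to highest, the gene scores in RTX over DMSO were SLC29A3 at -1.11, SLC29A1 at -0.53, SLC29A4 at -0.48, SLC28A1 at -0.36, SLC28A3 at -0.06, SLC29A2 at 0.55 and SLC28A2 at 0.80. The guides of SLC29A1 and SLC29A4 overlapped, and those of SLC29A3 lay wholly below both. The counting interval of SLC29A3 guide 52133, -1.35 to -0.58, still took in the lowest guide of each. The guides of SLC28A2 ran from -0.45 to 1.503. The lowest of them, guide 52121 at -0.4463, lay almost level with the highest SLC29A4 guide at -0.4474. Its counting interval of -0.88 to -0.06 took in every guide of SLC29A1 and SLC29A4, so SLC28A2 is not separated from these 2 genes either. The guides of SLC28A1, from -0.56 to 2.06, and of SLC29A2, from -0.71 to 2.08, overlapped those of SLC28A2, so the order of these genes is not separated by their guides.

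Few reads went with large ratios. Of the 8 transporter guides with under 100 reads in DMSO, 3 were called higher in RTX and 2 lower, and of the 13 with at least 100 reads 0 were called either way. Over all guides 29.8% of those under 100 reads in DMSO were called higher and 7.94% lower, and 3.55% and 4.93% of the others were. The DMSO reads are also the denominator of this ratio. Guides were also grouped by their day 0 reads, with the ratio still that of RTX over DMSO. Of the 6 guides under 100 reads at day 0, 2 were called higher and 1 lower. Of the other 15 guides 1 was called higher and 1 lower. Over all guides the same shares were 17.3% higher and 15.2% lower under 100 reads at day 0, and 6.17% and 3.65% in the others. The part of read number in the calls was not tested.

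The comparison of DMSO with day 0 follows the cells through the same time in solvent alone. The median gene score of the transporters was 0.14 (-0.0009 over all genes), and it was -0.05 when scaled to the non-targeting guides. Normalized values were higher in DMSO than at day 0 for 14 of 21 guides and lower for 7, where 50% of all guides were lower. SLC29A2 was the 1 gene of 7 called lower and 0 were called higher, beside 3.42% and 0.109% of all genes. With the mean over its guides SLC29A2 stood at -0.96, and that call was lost. At the guide level 4 of 21 were called lower and 1 higher, where 7.52% and 2.32% of all guides were. The 4 lower guides were 52130 and 52131 of SLC29A2, 52120 of SLC28A1 and 52123 of SLC28A2, and the higher one was 52129 of SLC29A1. edgeR's exact test called 1 guide lower and 0 higher, and over all guides it called 2.05% and 0.175%. At an FDR under 0.05 the authors' deposited table had 2 transporter guides lower and 2 higher, beside 5.84% and 9.77% of all guides.

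The 3 guides called higher in RTX over DMSO, 52131 of SLC29A2, 52120 of SLC28A1 and 52123 of SLC28A2, stood at 2.08, 2.06 and 1.503 there. The same guides stood at -1.93, -1.44 and -1.04 in DMSO over day 0, and both comparisons use the DMSO library. In RTX over day 0 they stood at 0.16, 0.63 and 0.47, all inside the non-targeting limits.

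RTX over day 0 spans the whole time in drug and leaves out the DMSO library. The median gene score of the 7 was -0.18 (-0.0049 over all genes), and all 4 SLC29 genes had negative scores, from -1.21 for SLC29A3 to -0.18 for SLC29A2. The SLC29A1 score of -0.21 became 0.09 without guide 52127 and 0.18 without guide 52128, so its sign needs both. The SLC28 scores were -0.15, 0.24 and 0.26 for SLC28A1, SLC28A2 and SLC28A3. Each of these also changed sign with 1 guide left out. SLC28A1 became 0.24 without guide 52118, SLC28A2 -0.04 without guide 52123 and SLC28A3 -0.16 without guide 52125. SLC29A3 was the 1 gene called lower and 0 were called higher, and the shares over all genes were 1.39% and 0.620%. Both guides called lower, 52134 and 52135, belong to SLC29A3. They were 2 of 21, and 0 were called higher, where 5.32% and 3.18% of all guides were. edgeR's exact test called 0 lower and 0 higher here, beside 0.658% and 0.216% of all guides, and at an unadjusted p under 0.05 it had 2 lower and 0 higher, where all guides had 4.24% and 2.56%. At an FDR under 0.05 the authors' deposited table had 0 transporter guides lower and 0 higher, beside 4.04% and 11.0% of all guides.

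The size of these changes can be set beside genes of antifolate action. SLC19A1, the reduced folate carrier, had a gene score of 5.27 in RTX over DMSO, and FPGS, which adds glutamates to folates, had 3.46. The largest ratio of a transporter guide was 2.08, against 4.95 for the lowest SLC19A1 guide and 2.40 for the lowest FPGS guide. TYMS, which encodes thymidylate synthase, stood at -0.61 in RTX over DMSO with guides from -0.89 to 0.31.

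A nucleoside salvage list of 23 genes, all with guides here, was set beside the transporters. It is broader than enzymes that act on nucleosides, since it also holds enzymes of nucleobases and nucleotides, such as HPRT1, DTYMK, CMPK1 and DUT. In RTX over DMSO the median gene score of the list was -0.11. Of its genes 0 were called higher and 0 lower, beside 2.75% and 0.844% of all genes. TK1, the cytosolic thymidine kinase, stood at -0.29, with guides from -1.44 to 0.90. TK2, the mitochondrial thymidine kinase, stood at -0.13 with guides from -0.47 to 0.57. DTYMK, which phosphorylates thymidylate further, stood at -0.29, and TYMP, which breaks thymidine down, at -0.11.

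Against day 0 a few genes of the salvage list were called lower. These were 2 of 23 in DMSO over day 0, namely CMPK1, the kinase of cytidine and uridine monophosphates, at -2.24, and DUT, which removes dUTP, at -1.55, around a list median of 0.14, where 3.42% of all genes were called lower. Scaled to the non-targeting guides, that list median was -0.05. In RTX over day 0 they were again 2 of 23, CMPK1 at -1.40 and TK1 at -1.02, around a list median of -0.04, where 1.39% of all genes were called lower, and 0 were called higher in either comparison. The TK1 guides ran from -1.495 to 1.30 there, on both sides of 0. DTYMK stood at -0.96 in RTX over day 0, and all 3 of its guides were lower in RTX.

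Among solute carriers, SLC29A3 stood at the low end. The 363 other solute carrier genes had a median gene score of -0.04 in RTX over DMSO. Of these 5 (1.38%) were called higher and 1 (0.275%) lower, where 2.75% and 0.844% of all genes were. Of the 359 solute carriers with 3 guides, members included, SLC29A3 ranked 1st from the lowest, SLC29A1 24th and SLC29A4 35th. SLC28A1 ranked 65th, SLC28A3 170th, SLC29A2 329th and SLC28A2 347th. The lowest of the others were SLC25A13, a mitochondrial aspartate-glutamate carrier, at -1.0, the acetyl-CoA transporter SLC33A1 at -0.93 and SLC36A3 at -0.93. The highest were SLC19A1 at 5.27, the mitochondrial phosphate carrier SLC25A3 at 1.90 and the bicarbonate transporter SLC4A7 at 1.89.

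Genes with the most similar pattern were sought over the pair of gene scores against day 0, among the 18094 genes with 3 guides. For SLC29A3 the nearest were SGSM2 at a distance of 0.0309, LTBP4 at 0.0373 and C1orf50 at 0.0915, and 4 genes in all lay nearer than 0.1. For SLC29A1 the nearest were TNFSF18, ITM2B and MRPL11, at distances of 0.0050 to 0.0098, but 278 genes lay nearer than 0.1. The distance rests on 3 libraries and 2 values a gene.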

How the data were processed

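Genomic DNA from NUGC3 cells with a GeCKO library was sequenced after PCR in 2 steps, 1 library for each of 3 groups, per the labels' protocols. The authors' tables, 1 for each of 3 pairs of libraries, were made with MAGeCK 0.5.7, and hg19 is the named build, per the submitters' processing notes. The matching of reads to guides is not described in the labels. The deposited values are a signal of guide abundance, reads divided by a size factor per library. The p-values and FDR per guide in the deposited tables come from the authors' model over 2 single libraries. Groups were taken from the sample titles, and columns were tied to libraries through the pair each table is named for.

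Read numbers came from each column's step, the value that 1 read is worth, and at least 99.9984% of values in each column of the RTX over DMSO and DMSO over day 0 tables were whole within 0.1. In the table of RTX over day 0 that step is too near 1 to tell, so its reads came from the other tables. Log2 ratios used the deposited values with a pseudocount of 5, for guides that had 10 or more normalized reads at day 0. Gene scores, the median over guides, were made for 20150 genes with at least 2 guides, leaving out non-targeting guides and date-like names. Calls are 2-fold or more. No p-value was made from guides or genes as replicates. edgeR 4.0.16 ran its exact test on recovered reads of all guides, and fewer were tested by the 2-fold rule. Counting intervals are exact binomial (scipy 1.17.1). The scores and the count test were tested on simulated data.

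The members, the salvage list and the rules were chosen with earlier results of these data known. Named genes are the 7 members, TK1, TK2, DTYMK and TYMP, other salvage genes with a score of at least 1 in size in any comparison, SLC19A1, FPGS and TYMS for scale, the 3 lowest and 3 highest other solute carriers, and the 3 genes nearest to SLC29A1 and to the member farthest from 0. Alternatives tried were a pseudocount of 1 or of 20, a day 0 filter of 50 reads or none, scaling to non-targeting guides or to equal totals, the mean over guides, a 1.5-fold limit, edgeR, the authors' FDR, and each guide left out.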

Additional observations from a re-analysis of the deposited data

How the results depend on the processing

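No paired analysis was possible because each group is 1 library and the labels give no replicate numbers. The median of the 7 transporter gene scores in RTX over DMSO was -0.36 and became -0.0568 with the mean over guides. Of 147 gene scores under other settings, 140 stayed close to the main score and 7 did not, and none that was past 2-fold changed sign. Those past 2-fold were SLC29A3 in both comparisons of RTX and SLC29A2 in DMSO over day 0. All 21 guides met the main minimum, so scores without a filter could not differ. The filter of 50 reads left 20 guides and could change the scores of SLC28A1 only. Close means a change no larger than the distance from the midpoint to either end of the counting interval of the gene's median guide. Of 63 gene scores with 1 guide left out, 24 moved by more than that distance. The SLC29A3 score ran from -1.25 to -0.91 in RTX over DMSO and from -1.36 to -0.88 in RTX over day 0 over the other settings, and with a pseudocount of 20 it missed the 2-fold limit in both. Scaling to the non-targeting guides moved the median of all guides to 0.10 in RTX over DMSO, -0.19 in DMSO over day 0 and -0.11 in RTX over day 0. In RTX over DMSO the transporter median was then -0.26, and the SLC28A3 score turned to 0.05. In DMSO over day 0 the scores of SLC28A3, SLC29A3 and SLC29A4 then turned to -0.08, -0.05 and -0.04, the transporter median to -0.05 and the salvage median to -0.05.

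Counts of transporter guides past the limit also changed. With a pseudocount of 20 there was 1 lower in RTX over DMSO (3.83% of all guides), 2 lower (5.57%) and 0 higher (1.45%) in DMSO over day 0, and 1 lower (3.43%) in RTX over day 0. Scaled to the non-targeting guides, 0 were higher in DMSO over day 0 (1.14%). With a 1.5-fold limit 6 were lower (15.5% of all guides) and 4 higher (18.0%) in RTX over DMSO. At that limit 4 were lower (14.1%) and 1 higher (11.7%) in RTX over day 0. With edgeR's exact test 0 were higher and 0 lower in RTX over DMSO and 0 lower in RTX over day 0, and in DMSO over day 0 there was 1 lower and 0 higher. By the FDR in the authors' deposited tables, there were 0 lower in RTX over DMSO and in RTX over day 0, and in DMSO over day 0 2 were lower and 2 higher. The cause of these changes was not tested. Read number limits the guides under 100 reads, where counting intervals were widest.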
